A study of Rattus norvegicus with 3 samples.

Results

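The genes described here are 9 members of the retinoic acid pathway: the nuclear receptors Rara, Rarb, Rarg, Rxra, Rxrb and Rxrg, the binding proteins Crabp1 and Crabp2, and the enzyme Aldh1a2. They were chosen by symbol, each matched 1 entry, and together they are 9 of 26353 entries in the authors' table. The study sequenced polyadenylated RNA from commissural neurons, the spinal cord neurons whose axons cross the ventral midline. The neurons came from rat embryos of embryonic day 13 and were then kept for 2 days in culture. There is 1 group of 3 libraries, called libraries 1, 2 and 3 by the replicate numbers in the labels, with no treatment and no control. The labels give no strain and do not tell whether the libraries stem from different cultures or litters. The p-values therefore describe variation among these 3 libraries alone, part or all of which could be technical.

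Retinoic acid is made from vitamin A inside cells: retinol dehydrogenases turn retinol into retinal, and Aldh1a enzymes turn retinal into retinoic acid. Retinoic acid binds retinoic acid receptors (RARs), which sit on DNA in pairs with retinoid X receptors (RXRs), and it is broken down by Cyp26 enzymes. In the developing spinal cord it is known to come mainly from the neighbouring somites and meninges and from some motor neurons, and it acts in neuronal differentiation and in patterning along the body axis.

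The deposited values are FPKM (fragments scaled by transcript length and by the number mapped), so levels can be compared between genes per length. They were rounded to 0.01 FPKM, and sequencing depth cannot be read from them. A level was called above 1 FPKM by a one-sided limma fit over the 17611 entries with a value over 0, at a Benjamini-Hochberg adjusted p of 0.05, and 11218 entries were. The markers of the labelled cells were present: all 6 neuronal markers and all 4 commissural axon markers lay above 1 FPKM, with summed levels of 2127 to 2355 and of 172 to 252 FPKM over the libraries. All 6 progenitor markers did so too, with summed levels of 457 to 520 FPKM, as did 2 of 5 macrophage markers (7.88 to 12.5 FPKM). The RNA is of whole cultures, so the cell source of a gene is not known, and fewer cells of a type and less RNA per cell cannot be told apart.

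The response to retinoic acid is often read at direct repeats, in which receptor pairs bind 2 short elements spaced along DNA. The promoters in RefSeq's table (build GRCr8, 250 bases before to 50 after each start) were searched on both strands for 2 copies, in the same direction, of the element AGGTCA, which may have G in the first place and T in the third, with 1, 2 or 5 bases between them. All 9 genes had a promoter in the table. With 5 bases between, the repeat was found in 0.382% of 33465 promoters and, among 81 genes of the pathway lists with a promoter, in Rarb and Cyp26a1. These matches are shown because they stand at 2 genes of the same pathway whose RNA levels lie far apart (below). Capitals mark the repeat, and each line gives the strand of the gene, 5′ to 3′.
Rarb (chr15:11336410-11336438, plus strand): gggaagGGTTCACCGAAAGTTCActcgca
Cyp26a1 (chr1:244883724-244883752, plus strand): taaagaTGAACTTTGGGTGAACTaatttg

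The Rarb repeat read along the gene's own strand and lay 25 to 41 bases after the start in the table. The Cyp26a1 repeat read on the opposite strand and lay 92 to 76 bases before the start. Repeats with 1 base between were in 0.233% of all promoters and those with 2 bases in 0.170%, and none of the 81 list genes held either. A match is a description of letters and does not by itself show binding, which was not measured here. No match says only that these letters are not in this window.

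Of the 9 retinoid genes, 6 were called above 1 FPKM by this limma fit, adjusted over all entries, against 63.7% of all entries tested, so the share of members above the level was near that of all entries. The mean levels of the 9 genes ran from 576 FPKM for Crabp1 to 0.240 FPKM for Rarg. All 9 passed the filter on low values, which asked only for a value above 0 in 1 library. The level of 1 FPKM has no absolute meaning: when each library was rescaled to a sum of 1000000 over all entries, a sum of which 35 to 43 entries above 10000 FPKM made up the larger part, only Crabp1 lay above 1.

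**Figure D1:**
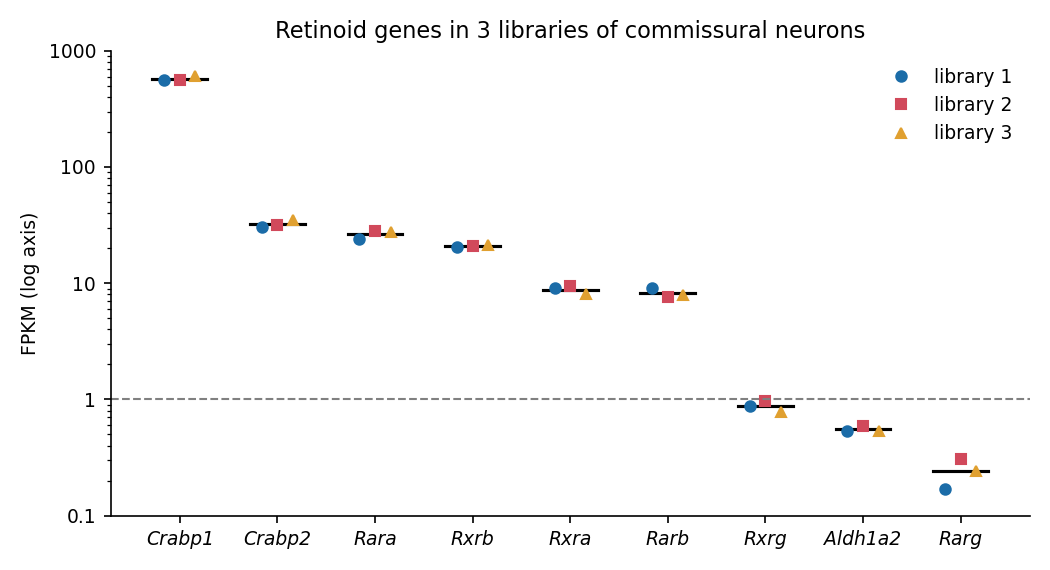
Levels of the 9 retinoid genes, in order of their mean. The vertical axis is FPKM on a log scale, each point is 1 library, the black bar is the mean of the 3 libraries and the dashed line is 1 FPKM. Crabp1 stands alone at the top, 5 genes lie between 7.67 and 35.2 FPKM, and Rxrg, Aldh1a2 and Rarg lie below 1 FPKM in every library.

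Crabp1 and Crabp2 are small proteins of the cytosol that bind retinoic acid; Crabp1 is known for holding it and passing it to breakdown, and Crabp2 for carrying it to RARs in the nucleus. Crabp1 (ENSRNOG00000023633) had 559, 559.9 and 608 FPKM in libraries 1, 2 and 3, a mean of 576 ± 27.7 (SD, n = 3). It was the 161st highest of the 17611 entries tested. Crabp2 (ENSRNOG00000022101, described in the table as a Crabp2-like gene) had 30.7, 31.5 and 35.2 FPKM, a mean of 32.5 ± 2.42. Both genes were highest in library 3, and no value of Crabp2 came near one of Crabp1. Within libraries Crabp1 exceeded Crabp2 by a mean of 17.7-fold (95% interval 14.4 to 21.7), in the same direction in 3 of 3 libraries. The log2 ratio was 4.18, 4.15 and 4.10 in libraries 1, 2 and 3. Intervals of ratios draw their variance largely from all entries set against the same gene, so they are not the spread of the ratio itself. Ratios are of FPKM + 0.1, taken on a log2 scale, and are therefore too small for genes of low level. Crabp1 made up 94.7% ± 0.140 of the FPKM of the pair and Crabp2 5.34% ± 0.140. The summed level of both binding proteins was 17.4 ± 0.860 times the summed level of the 3 RARs.

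The 150 bases before the starts of these binding protein genes are shown because the genes, which encode related proteins, differ most in level among neighbours in the order. Capitals mark GGGCGG (either strand), the element that Sp1 factors bind, and TATAAA on the gene's strand, letters known from the TATA box. TATAAA was searched by its letters alone, without regard to its distance from the start. A match therefore does not show a TATA box for the start used here.
Crabp1 (chr8:64047281-64047430, plus strand, GRCr8, RefSeq): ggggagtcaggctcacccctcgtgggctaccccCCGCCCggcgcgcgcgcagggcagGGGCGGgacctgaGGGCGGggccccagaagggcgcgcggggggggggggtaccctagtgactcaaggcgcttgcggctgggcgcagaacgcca
Crabp2 (chr2:175714712-175714861, plus strand, GRCr8, RefSeq): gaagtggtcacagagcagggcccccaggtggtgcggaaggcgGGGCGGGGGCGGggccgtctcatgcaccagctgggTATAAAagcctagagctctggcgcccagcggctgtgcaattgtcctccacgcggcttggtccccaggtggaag

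TATAAA was found within the 250 bases before the start in Crabp2 alone of the 9 genes, and in 8.06% of all promoters. GGGCGG was found in 7 of the 9, all but Rarb and Rxrg. It was in 43 of the 81 list genes with a promoter, a count that takes in these 7, and in 33.1% of all promoters. The G and C content of the promoters was 61.0% for Crabp2 and 70.7% for Crabp1, with a median of 51.7% over all promoters. Rxra had the highest at 84.7%. Rarg has 2 starts in the table, with 71.0% and 52.3%. These are descriptions of the reference sequence, and their part in the levels was not tested.

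The RARs are the receptors that retinoic acid itself activates, and Rara supplied most of their RNA. Rara (ENSRNOG00000009972) had 24.1, 27.96 and 27.4 FPKM, a mean of 26.5 ± 2.09 (SD, n = 3). Rarb (ENSRNOG00000024061), itself a known target of retinoic acid, had 9.05, 7.67 and 7.87 FPKM, a mean of 8.20 ± 0.746. Library 1 was the lowest for Rara and the highest for Rarb, and the values of the genes did not overlap. Rarg (ENSRNOG00000012499), known mainly from skin and cartilage, had 0.17, 0.31 and 0.24 FPKM, a mean of 0.240 ± 0.0700. It lay below Rara and Rarb in every library and had the largest spread relative to its mean, a coefficient of variation of 29.2%, at values where the rounding step of 0.01 FPKM is a visible part.

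Rara made up 75.8% ± 3.00 of the summed FPKM of the RARs, Rarb 23.6% ± 3.16 and Rarg 0.683% ± 0.176. Rara exceeded Rarb by 3.21-fold (95% interval 2.64 to 3.90). The log2 ratio of Rara to Rarb was 1.40, 1.85 and 1.79 in libraries 1, 2 and 3, so library 1 stood below the others. Rarb exceeded Rarg by 24.7-fold (18.8 to 32.5), a size that depends on the pseudocount: it was 7.41-fold with a pseudocount of 1, 33.6-fold with one of 0.01 and 4.05-fold when libraries were rescaled to a sum of 1000000 over all entries. Each of these differences had the same direction in 3 of 3 libraries.

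RXRs are the partners of RARs on DNA and also of other nuclear receptors. Rxrb (ENSRNOG00000000464) had 20.3, 20.8 and 21.2 FPKM, a mean of 20.8 ± 0.420, and with a coefficient of variation of 2.03% it was the steadiest of the 9 genes. Rxra (ENSRNOG00000009446) had 9.02, 9.38 and 8.04 FPKM, a mean of 8.81 ± 0.693. Rxrg (ENSRNOG00000004537), the member known for its restricted pattern in nervous tissue and muscle, had 0.87, 0.97 and 0.78 FPKM, a mean of 0.873 ± 0.0950. The 3 genes did not overlap in any library, and both Rxra and Rxrg were lowest in library 3. Rxrg did not lie above 1 FPKM (limma, Benjamini-Hochberg adjusted p = 1.00), and on a scale of a sum of 1000000 over entries up to 10000 FPKM it did (limma, Benjamini-Hochberg adjusted p = 6.05e-04).

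Rxrb made up 68.2% ± 2.08 of the summed FPKM of the RXRs, Rxra 28.9% ± 1.84 and Rxrg 2.87% ± 0.258. Rxrb exceeded Rxra by 2.34-fold (95% interval 2.06 to 2.66), in 3 of 3 libraries, with an adjusted p of 2.43e-07 (limma, Benjamini-Hochberg). The summed level of the RXRs was 30.2, 31.1 and 29.98 FPKM and that of the RARs 33.3, 35.9 and 35.5 FPKM. The ratio of the RXR sum to the RAR sum was therefore 0.907, 0.866 and 0.844, a mean of 0.872 ± 0.0319, and the RXR sum was the lower in all 3 libraries.

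**Figure D2:**
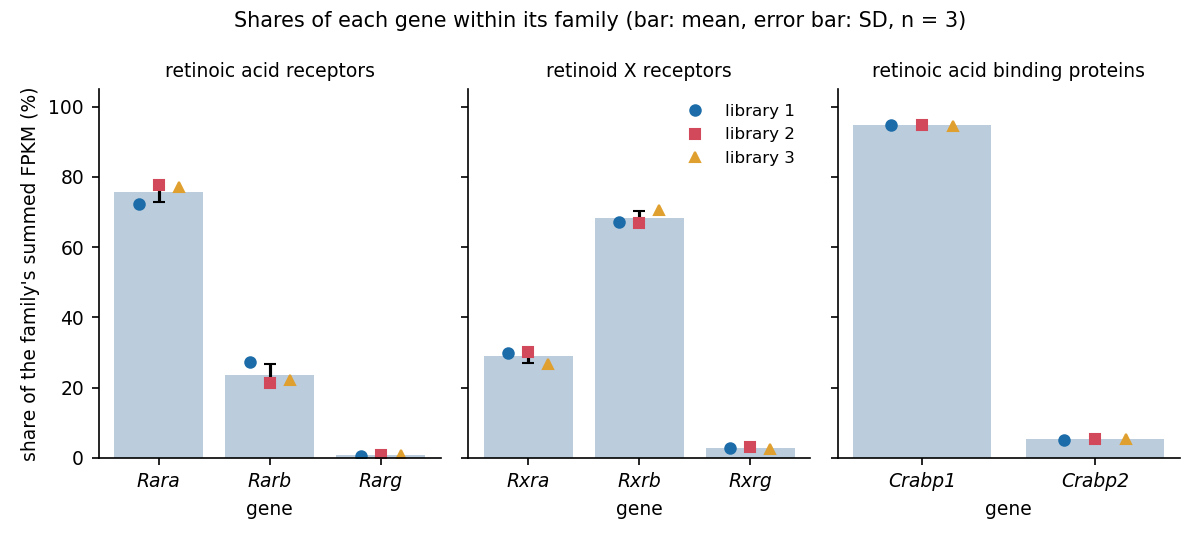
Share of each gene in the summed FPKM of its family, in percent. Bars are means, error bars are SD over 3 libraries and points are single libraries. In every library Rara, Rxrb and Crabp1 hold the largest share of their families.

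All 36 pairs of members were compared within libraries, and 35 differed past the threshold (limma, Benjamini-Hochberg adjusted over all entries set against the same denominator gene). Most entries differ from any 1 gene, so this count says little by itself: the share of all entries that differed from the denominator gene was 91.5% for Rarb, 91.3% for Rarg, 93.4% for Rxra, 94.6% for Rxrb, 93.9% for Rxrg, 99.3% for Crabp1, 94.4% for Crabp2 and 93.6% for Aldh1a2. The order of the means was Crabp1, Crabp2, Rara, Rxrb, Rxra, Rarb, Rxrg, Aldh1a2 and Rarg. The neighbours Rxra and Rarb did not differ past the threshold (1.07-fold, 95% interval 0.929 to 1.24), with an adjusted p of 0.343 (limma, Benjamini-Hochberg). Rxra was the higher in libraries 2 and 3 and Rarb by a small margin in library 1. Crabp2 exceeded Rara by 1.23-fold (1.04 to 1.44), in 3 of 3 libraries, with an adjusted p of 0.0145 (limma, Benjamini-Hochberg), but not past the threshold without library 1 (adjusted p = 0.247). Rara exceeded Rxrb by 1.27-fold (1.14 to 1.42), in 3 of 3 libraries, with an adjusted p of 0.00105 (limma, Benjamini-Hochberg). When a difference of more than 1.5-fold was tested, 31 pairs passed, and Rara and Rxrb, Rara and Crabp2, Rxrb and Crabp2, and Rxrg and Aldh1a2 no longer did.

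**Figure D3:**
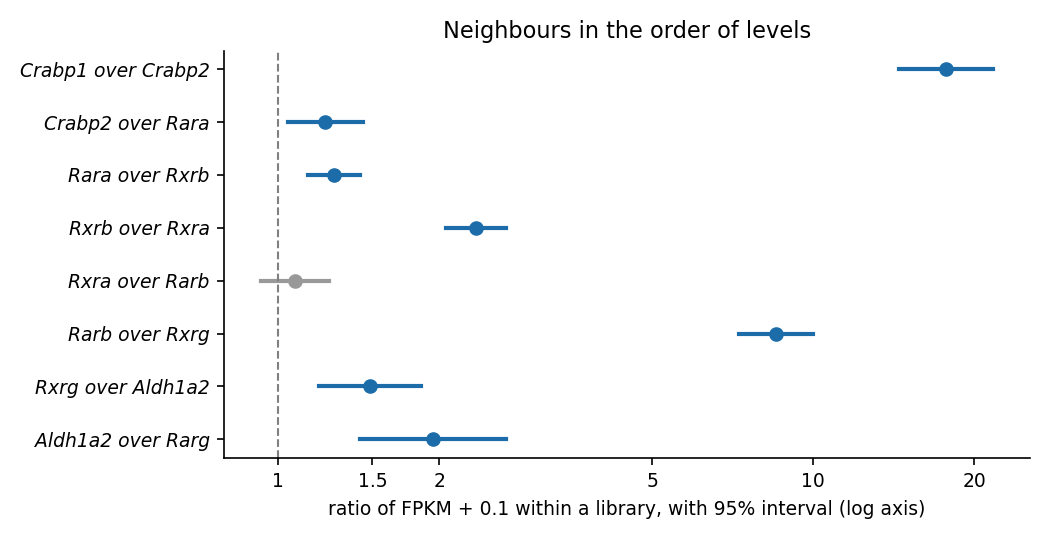
Ratio of each gene to the next lower one in the order of levels, with its 95% interval, on a log axis. Blue pairs differ past the threshold and the grey pair does not. The interval of Rxra over Rarb, 0.929 to 1.24, spans the dashed line at 1.

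Aldh1a2 makes retinoic acid from retinal and is the main such enzyme of the early embryo. Aldh1a2 (ENSRNOG00000016042) had 0.54, 0.59 and 0.53 FPKM, a mean of 0.553 ± 0.0321 (SD, n = 3), and did not lie above 1 FPKM (limma, Benjamini-Hochberg adjusted p = 1.00). Its 3 values lay close together and below every value of Rxrg. Rxrg exceeded it by 1.49-fold (95% interval 1.19 to 1.85), in 3 of 3 libraries, with an adjusted p of 0.00552 (limma, Benjamini-Hochberg), and Aldh1a2 exceeded Rarg by 1.95-fold (1.43 to 2.66), also in 3 of 3 libraries (adjusted p = 0.00250), or by 1.25-fold with a pseudocount of 1. The relatives Aldh1a1 and Aldh1a3, which carry out the same step, had 0.547 ± 0.136 and 0.0433 ± 0.0513 FPKM.

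Few markers of the cell types known to express Aldh1a2 lay above 1 FPKM, against 63.7% of all entries tested. Of 10 markers of meninges and fibroblasts, 1 lay above 1 FPKM, Col3a1 at 2.27 ± 0.512 FPKM; their summed level was 3.43 to 4.40 FPKM over the libraries and Dcn was listed at 0 in each. Of 6 motor neuron markers, 1 did, Isl1 at 12.7 ± 0.269, a gene that dorsal dI3 neurons also express; their summed level was 13.1 to 13.6 FPKM, and both Isl2 and Mnx1 stood at 0 throughout. Of 6 markers of somite mesoderm, 1 did, Pax3 at 11.9 ± 0.879, which dorsal progenitors also express; their summed level was 11.4 to 13.1 FPKM, and Meox1 and Myf5 were listed at 0. The part of these cells in the level of Aldh1a2 was not tested.

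The rest of the pathway was counted on lists of uptake, synthesis and breakdown. By the same test 63.7% of all entries tested lay above 1 FPKM, and each list count stands beside that share. Of 12 genes for uptake, retinol binding and storage, 3 lay above 1 FPKM, among them Dgat1, which esterifies retinol among other lipids, at 11.5 ± 0.515, and Ttr, a carrier of retinol binding protein in plasma, at 1.64 ± 0.674. The median of this list was 0.132 FPKM, against 4.81 FPKM for all entries tested. Ttr was 1.21, 2.42 and 1.30 FPKM, so library 2 stood above the others, and its call was lost when library 1 was left out (limma, Benjamini-Hochberg adjusted p = 0.0975) or library 3 (adjusted p = 0.119). Rbp4, the plasma carrier of retinol, had 0.200 ± 0.0608 FPKM and its receptor Stra6 0.157 ± 0.0153. Lrat, which stores retinol as esters, was listed at 0 in every library, as were Rbp3 and Rbp7.

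Of 17 enzymes of retinol and retinal, 7 lay above 1 FPKM, against 63.7% of all entries tested. The median of the list was 0.440 FPKM. Adh5 had 97.4 ± 12.4 FPKM, an alcohol dehydrogenase known chiefly for handling formaldehyde. Rdh11 had 17.8 ± 2.20, Rdh14 6.90 ± 1.30 and Dhrs4 3.22 ± 0.874 FPKM. Each of these 4 was highest in library 2. Rdh10, the enzyme that makes most retinal in embryos, had 2.28, 3.16 and 2.34 FPKM and lay above 1 FPKM (limma, Benjamini-Hochberg adjusted p = 7.70e-06), while Dhrs3, which turns retinal back into retinol, had 0.35, 0.66 and 0.31 FPKM and did not. Adh1 and Adh4 were listed at 0 in every library. Every value of Rdh10 lay above every value of Aldh1a2, the enzyme of the step that follows.

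Of the 3 Cyp26 enzymes that break down retinoic acid, Cyp26b1 had 1.25, 1.34 and 1.25 FPKM, a mean of 1.28 ± 0.0520, and lay above 1 FPKM (limma, Benjamini-Hochberg adjusted p = 0.0248). This call was lost when entries at 0 in all libraries were fitted as well (adjusted p = 0.0530). Cyp26a1, which is known for a strong response to retinoic acid, was listed at 0, 0.02 and 0 FPKM, and Cyp26c1 at 0 in each library. Of the 2 genes whose promoters hold the direct repeat shown above, Rarb thus lay at 7.67 to 9.05 FPKM, while Cyp26a1 was listed at or near 0 in all 3 libraries.

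The list of known retinoic acid targets holds genes that retinoic acid induces in at least some cells. Of 21 targets, 11 lay above 1 FPKM, against 63.7% of all entries tested, and the list had a median of 1.28 FPKM. Among the highest were Meis2 (100.3 ± 3.30 FPKM) and Meis1 (51.4 ± 3.15), homeodomain factors that work with Hox proteins, and Crabp2, while Cdx1 and Stra8 were listed at 0 in each library. The targets above 1 FPKM also have other known inputs. No group with a retinoid added or withdrawn stands beside these samples, so the counts do not measure a response. Whether the culture medium held a retinoid is not known here.

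Retinoic acid can be carried by some fatty acid binding proteins too. Both genes listed from this family lay above 1 FPKM, against 63.7% of all entries tested. Whether either carries retinoic acid in these cells was not measured. Fabp7, the fatty acid binding protein of radial glia, had 492, 686 and 514 FPKM and Fabp5, which can carry retinoic acid to Ppard, 251, 327 and 281 FPKM. Both were highest in library 2, whereas Crabp1 was highest in library 3. Ppard had 1.76, 2.76 and 1.91 FPKM and lay above 1 FPKM.

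Other receptors that pair with RXRs were compared for their place beside the RARs. Of 13 such partners, 5 lay above 1 FPKM, against 63.7% of all entries tested, and the list had a median of 0.507 FPKM. Thra, a thyroid hormone receptor, had 115, 137 and 117 FPKM, above every value of the 9 members but those of Crabp1. Nr4a2, known from dopamine neurons, had 26.9 ± 0.964 and Nr1h2, a sensor of oxysterols, 20.02 ± 1.11 FPKM. Nr1i2 was listed at 0 in each library and Pparg at 0, 0.03 and 0 FPKM. RAR and RXR pairs are known to act mainly through corepressors without ligand and coactivators with it, a rule that does not cover every listed corepressor. The counts of both stand beside the same share of 63.7% of all entries tested. All 9 corepressor genes lay above 1 FPKM (median 15.7 FPKM), led by Ncor1 at 43.8 ± 2.56, Hdac3 at 36.3 ± 2.16, Tbl1x at 24.2 ± 1.35 and Gps2 at 20.3 ± 1.75, with Tbl1xr1 at 13.8 ± 0.0833 and Nrip1 at 6.25 ± 0.827 FPKM lowest. All 8 coactivator genes did too (median 11.9 FPKM), led by Carm1 at 31.1 ± 0.705, Med1 at 16.6 ± 1.04, Ncoa2 at 14.1 ± 1.34 and Ep300 at 12.5 ± 3.10, with Ncoa3 at 8.22 ± 0.327 and Kat2b at 5.22 ± 0.0800 FPKM lowest.

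**Figure D4:**
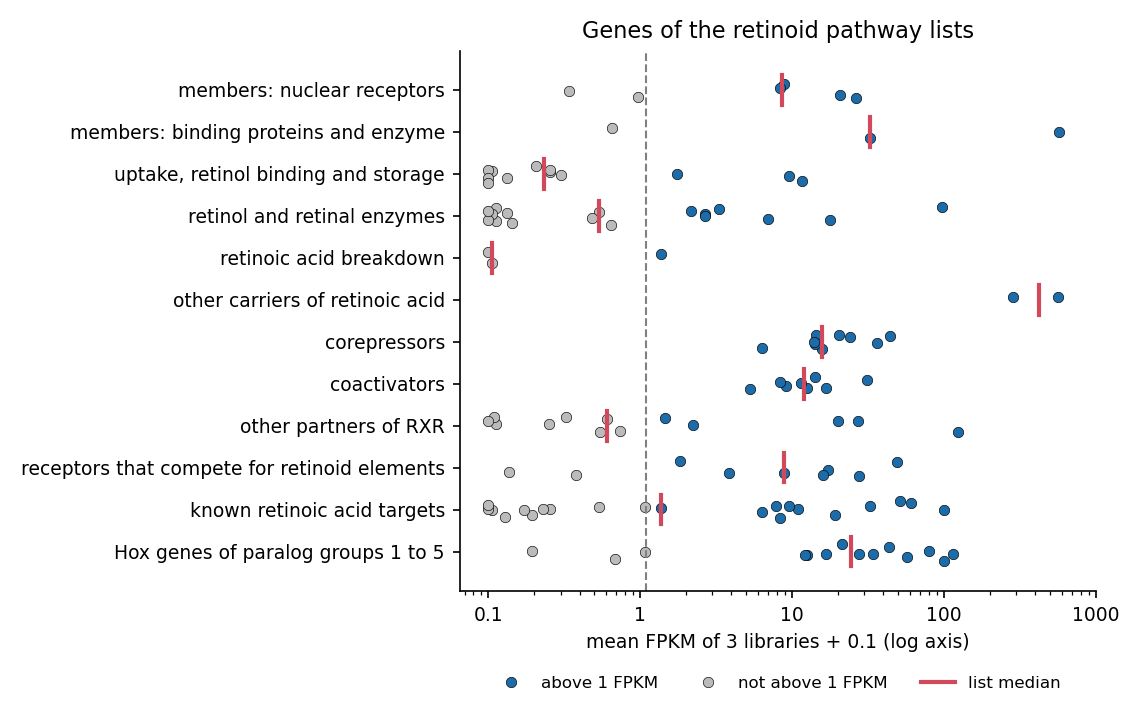
Mean FPKM (plus 0.1, log axis) of each gene on 12 lists of the retinoid pathway. Blue genes lay above 1 FPKM in limma's test, grey ones did not, red bars are list medians and the dashed line is 1 FPKM. All corepressors and coactivators are blue, while the lists of uptake, enzymes and breakdown reach down to genes listed at 0.

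Robo3, the commissural receptor, had 74.5 FPKM in library 2 and 118 and 119 FPKM in libraries 1 and 3, so the members were compared between libraries in the same way. Of 11662 entries with a mean of at least 1 FPKM, 4.02% lay over 1.5-fold from the mean of the other libraries in library 2, and 3.17% and 2.60% did so in libraries 1 and 3. The log2 difference of library 2 from the mean of libraries 1 and 3 had a median of 0.13 over these entries. Rarb had -0.14, Crabp2 -0.06, Crabp1 -0.06, Rxrb 0.00, Aldh1a2 0.12, Rara 0.12, Rxra 0.14, Rxrg 0.21 and Rarg 0.44. The 6 members above 1 FPKM lay within the middle 90% of these entries (-0.39 to 0.41), and Rxrg, Aldh1a2 and Rarg within that of 2893 entries with a mean of 0.1 to 1 FPKM (-1.12 to 1.02). Without library 2, 6 members lay above 1 FPKM and 35 pairs differed, the same counts as with it. The 6 members above 1 FPKM had coefficients of variation of 2.03% to 9.10%, against a median of 8.44% over 8695 entries with a mean of at least 5 FPKM.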

How the data were processed

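FPKM values, 1 column for each library, were deposited by the authors in a single table. Trimmomatic 0.22, STAR and build rn6 are named in the submitters' processing notes; per the labels, stranded libraries were read as pairs of 50 bp. How FPKM was computed (tool, annotation, strand, shared reads) is not given in the sources used here, and reads shared between relatives could move single values. Between 0.360% and 0.557% of entries with a mean of at least 1 FPKM were identical between libraries, so 3 samples were counted. FPKM gives no counts, so no counting intervals were computed.

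Values were used as log2(FPKM + 0.1). limma 3.58.1 (R 4.3.3, statmod 1.5.0), its prior set robust and with a trend on mean level, tested all 17611 entries above 0 in a library against 1 FPKM, and, for each pair of members, the ratio of every entry to the denominator gene. For most denominators that fit treats the shared noise of the denominator as known, so its smallest p-values are not printed; joining the moderated variances of both genes, added after the data were seen, made the same calls. On simulated data with 17611 genes, 48 of 50 genes at 1.5 FPKM and 1 of 50 at exactly 1 FPKM were called. Of 11248 such calls, 8 were false. Among 200 simulated pairs each, 11 without a difference, 94 with a ratio of 1.2 and 177 with 1.5 were called. The simulated pairs did not cover levels as low as those of Rxrg, Aldh1a2 and Rarg or as high as that of Crabp1.

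The members and gene lists were chosen with earlier results of these data known. The text names all members, every gene of lists of 6 or fewer, the 4 highest and 2 lowest of longer lists, and markers by their highest and lowest; Aldh1a1, Aldh1a3, Rdh10, Dhrs3, Stra6 and the other genes outside this rule were picked with their values known. Some genes that this rule names are not reported here. Of 172 list genes, 2 (Rbpr2 and Hoxa4) matched no symbol and 2 were matched by a RefSeq synonym; for 3 with several entries the highest was taken. The alternatives were other pseudocounts, filters, scalings, levels, priors, a margin for pairs and each library left out. Figures were drawn with matplotlib 3.10.9 in Python 3.11.15.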

Additional observations from a re-analysis of the deposited data

How the results depend on the processing

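No paired analysis was possible because all libraries form 1 group; ratios of members were taken within libraries. With other pseudocounts, with no filter, with entries that have a symbol, with upper quartile scaling, with another prior, and without any 1 library, 6 members lay above 1 FPKM and 34 to 35 of 36 pairs differed. Without each library in turn, the log2 level over 1 FPKM was 8.99 to 9.05 for Crabp1, 4.83 to 4.93 for Crabp2, 4.55 to 4.66 for Rara, 4.23 to 4.26 for Rxrb, 2.97 to 3.08 for Rxra, 2.84 to 2.96 for Rarb, -0.25 to -0.11 for Rxrg, -0.79 to -0.73 for Aldh1a2 and -1.86 to -1.56 for Rarg, and 2 to 3 genes of the uptake list passed. With entries of at least 1 FPKM alone, 14 pairs differed, since 3 members and their pairs drop out. With a pseudocount of 1, 20 of 36 pair ratios moved by over 1.5 times, each with Rxrg, Aldh1a2 or Rarg in it; on the scale of a sum of 1000000 over all entries 20 did likewise. With no filter, 0 breakdown genes passed.

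Calls against 1 FPKM depend on the scale by construction. With each library rescaled to a sum of 1000000 over entries up to 10000 FPKM, 7 members passed and Rxrg turned to 0.90 over 1 (log2). With a sum of 1000000 over all entries, 1 member passed, and the log2 level over 1 was 0.15 for Rara, 0.42 for Crabp2, -1.30 for Rarb, -1.21 for Rxra and -0.16 for Rxrb; of the lists, 0 uptake, 1 enzyme, 0 breakdown, 2 corepressor, 0 coactivator, 1 partner, 1 competing receptor, 3 target and 5 Hox genes passed, while 35 pairs still differed. At a level of 0.5 FPKM, Rxrg lay above it by 0.69 (log2); at 5 FPKM, 6 members, 3 enzymes, 0 breakdown genes and 3 partners passed. The ratio of Rara to Crabp2 missed the threshold with no trend and no robust prior (limma, Benjamini-Hochberg adjusted p = 0.0553) and without library 1. The spread covers 3 libraries of unknown depth and not errors of length, mapping or annotation that they share.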

Other observations

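Receptors that can occupy the same kinds of DNA elements as the RARs and RXRs were abundant. Of 9 such genes, 7 were called above 1 FPKM (limma, Benjamini-Hochberg), against 63.7% of all entries tested. The list had a median of 8.74 FPKM. Nr2f1, an orphan receptor known to oppose retinoid signalling on shared elements, had 49.7, 50.6 and 46.3 FPKM, above every value of Rara. Nr2c2 had 27.6 ± 1.39, Nr2f2, the close relative of Nr2f1, 17.1 ± 2.24 and Nr2f6 15.9 ± 1.49 FPKM (SD, n = 3). Rora, a receptor of the retinoid-related orphan family, had 0.280 ± 0.0819 FPKM.

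Retinoic acid is known to induce Hox genes of the 3′ end of each cluster. Of 14 matched Hox genes of paralog groups 1 to 5, 11 lay above 1 FPKM, against 63.7% of all entries tested. Their median was 24.4 FPKM. Hoxb5 had 114.8 ± 8.47, Hoxb2 99.6 ± 7.32, Hoxb3 80.3 ± 1.93 and Hoxc4 57.2 ± 6.21 FPKM. Hoxd1 had 0.580 ± 0.200 and Hoxb1, an early target, 0.0933 ± 0.0666 FPKM, and neither passed.

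The remaining marker lists were counted for other cells, beside a share of 63.7% of all entries tested that lay above 1 FPKM. All 4 genes listed as dI1 markers lay above 1 FPKM, from Pou4f1 at 61.9 to Lhx9 at 4.96 FPKM. Which cells supplied their RNA was not tested. Of 4 roof plate markers, 2 did, with Msx1 highest at 4.66 FPKM, and of 3 floor plate markers 1, Spon1 at 1.37 FPKM. Of 5 markers of neural crest and ganglia, 1 did. Of the 4 endothelial markers, limma called 0, and an unadjusted p under 0.05 was reached by 0.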
